A study of Mus musculus with 28 samples.

Results

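The comparison described here is between cells that were made to express Gfi1, Pou4f3 and Atoh1 together (iGPA) and cells that were made to express Pou4f3 and Atoh1 without Gfi1 (iP+A). The libraries were chosen by their labels alone, as the iGPA and iP+A libraries with and without doxycycline (Dox), 2 replicates of each, which makes 8 of the 28 RNA-seq libraries of the series. All lines of the series were mouse embryonic stem cell lines made in the A2loxCre parental line, in which a Dox-dependent cassette at a fixed locus encodes the factors, joined by 2A peptides, together with the mVenus reporter. In the cassettes, Atoh1 carried a 3xFlag tag and Pou4f3 a 3xMyc tag. Cells were differentiated as embryoid bodies (EBs), and Dox was given at 2 µg/ml from day 4 for 48 h, so that RNA was taken on day 6. The iGPA Dox and iP+A Dox libraries came from mVenus+ cells sorted by flow cytometry, whereas the iGPA No Dox and iP+A No Dox libraries came from EBs of the same lines that received no Dox and were not sorted. Replicates were different clones of a line, so that p-values measure the spread between clones. The iGPA and iP+A groups therefore differed in the presence of Gfi1 in the cassette and also in the line, and the untreated libraries were used to see how far the lines differed before the factors were switched on. RNA from the cassette and from the endogenous genes was not separated in the values.

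Hair cells (HCs) are the mechanosensory cells of the inner ear. Atoh1 is the basic helix-loop-helix (bHLH) factor that starts HC differentiation, Pou4f3 is a POU-homeodomain factor needed for HC maturation and survival, and Gfi1 is a zinc-finger repressor whose SNAG domain recruits the lysine demethylase Kdm1a with CoREST proteins and which is needed for HC survival. Atoh1 and Pou4f3 relatives also act in sensory neurons and other neurons, and Gfi1 is best known outside the ear for its role in blood cell differentiation.

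The 8 libraries summed to 37200000 to 40400000 normalized counts, with 17721 to 18074 genes above 0, and replicates of a group correlated across genes at 0.981 to 0.991. Values are normalized counts, and all differences are on the log2(normalized count + 1) scale, which understates the change of genes at low levels. A gene was called when it passed an adjusted p of 0.05 in limma (Benjamini-Hochberg over 16837 genes) with a log2 difference of at least 1.5 in either direction. For each contrast the share of all tested genes called in that direction is given as the background against which counts of gene lists are to be read.

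Gfi1 separated the lines as labelled. In iGPA Dox cells it reached 8119 and 9464 normalized counts in replicates 1 and 2, against 85.9 and 107 in iP+A Dox cells, 67.6 and 72.6 in untreated iGPA and 27.3 and 33.0 in untreated iP+A (chromosome 5, 108145674 to 108155056, mm9). The iGPA Dox libraries were thus far above all others (91.1-fold over iP+A Dox, log2 difference 6.50 ± 0.25 SE, limma adjusted p = 4.39e-12). The other factors did not pass the test between the Dox groups. Pou4f3, at 13040 and 15120 in iGPA Dox and 12880 and 10870 in iP+A Dox, differed by 0.25 ± 0.46 (limma adjusted p = 0.717), and Atoh1, at 16730 and 19110 against 14890 and 12820, differed by 0.37 ± 0.33 (limma adjusted p = 0.408).

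Without Dox, the lines differed at 60 genes that were higher in iGPA (0.356% of those tested) and 123 that were lower (0.731%). These counts rested on few libraries. They fell to 7 and 5 without replicate 2 of untreated iGPA, and rose to 108 and 274 without replicate 1 of it. They were 33 and 216 without replicate 1 of untreated iP+A, and without its replicate 2 the second count was 70. The share of the calls that were higher moved from 32.8% to 60.1% under quantile normalization. The clearest line difference was Grb10, an adaptor protein that restrains growth factor signalling. Its levels were 34070 and 28580 in untreated iGPA and 519 and 654 in untreated iP+A, and they stayed so with Dox, at 25160 and 26150 in iGPA against 526 and 390 in iP+A. The difference was 5.74 without Dox and 5.82 ± 0.18 with Dox (limma adjusted p = 9.19e-14), so that the Dox effects of the lines differed by only 0.08. In the other lines with Dox, Grb10 lay between 22830 and 48690, so iP+A stood apart from the rest of the lines at this gene.

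Blood genes also differed between the lines before Dox, and EBs of this age contain blood, endothelial and mesenchymal cells beside neural ones. In a bulk sample, fewer cells of a type and less RNA per cell cannot be told apart. Of 19 blood genes tested, 5 were higher in untreated iGPA and none was lower, with a median difference of 1.34, and 9 were higher in iGPA Dox and none lower, with a median of 1.62. The summed level of the list was 270600 and 450200 in untreated iGPA, 108100 and 125500 in untreated iP+A, 33340 and 58790 in iGPA Dox and 15570 and 34360 in iP+A Dox. Gata1, the erythroid master factor, had 2410 and 3944 normalized counts in iGPA Dox and 341 and 649 in iP+A Dox (2.71 ± 0.29, limma adjusted p = 1.12e-06), but already 3684 and 5140 against 1285 and 1494 without Dox (1.65, called). Tal1, which specifies blood progenitors, followed the same order at 8235 and 12730 against 1693 and 2552 with Dox and 5230 and 7456 against 1845 and 2204 without. No blood gene passed the limma test for a difference between the Dox effects of the lines, although 6 had an unadjusted p under 0.05, and at most 1 passed when a library was left out. Without replicate 2 of iGPA Dox, 5 in place of 9 blood genes were called between the Dox groups, and the untreated count of 5 was 0 without replicate 2 of untreated iGPA, 8 without replicate 1 of it, and 2 and 3 without replicates 1 and 2 of untreated iP+A.

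Of 16 pluripotency genes tested, 5 were lower in iGPA Dox and 3 in untreated iGPA, with medians of −0.74 and −2.0, and none was higher in either comparison. Between the Dox groups, Pou5f1 (−0.24), Klf4 (−0.20), Zfp42 (−0.19), Fgf4 (0.64) and Dppa4 (0.72) were among those that did not pass. The summed level was 23390 and 46550 in untreated iP+A, against 23460 and 14650 in untreated iGPA, 11680 and 13820 in iGPA Dox and 16350 and 17230 in iP+A Dox. The untreated lines thus overlapped in this sum. Nanog had 1596 normalized counts in replicate 2 of untreated iP+A but 271 in replicate 1 of it. Without replicate 2 of iP+A Dox the count of lower genes in the Dox groups was 1 in place of 5, and it was 3 and 2 without replicates 1 and 2 of iGPA Dox and 1 with only the 8 libraries in the fit. None of the 5 was called in the difference of the Dox effects. Without replicate 2 of untreated iP+A, or of untreated iGPA, none was called in the untreated comparison, and without replicate 1 of untreated iP+A or iGPA, 10 and 8 were. The part of these cells in the results below was not tested.

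**Figure D1:**
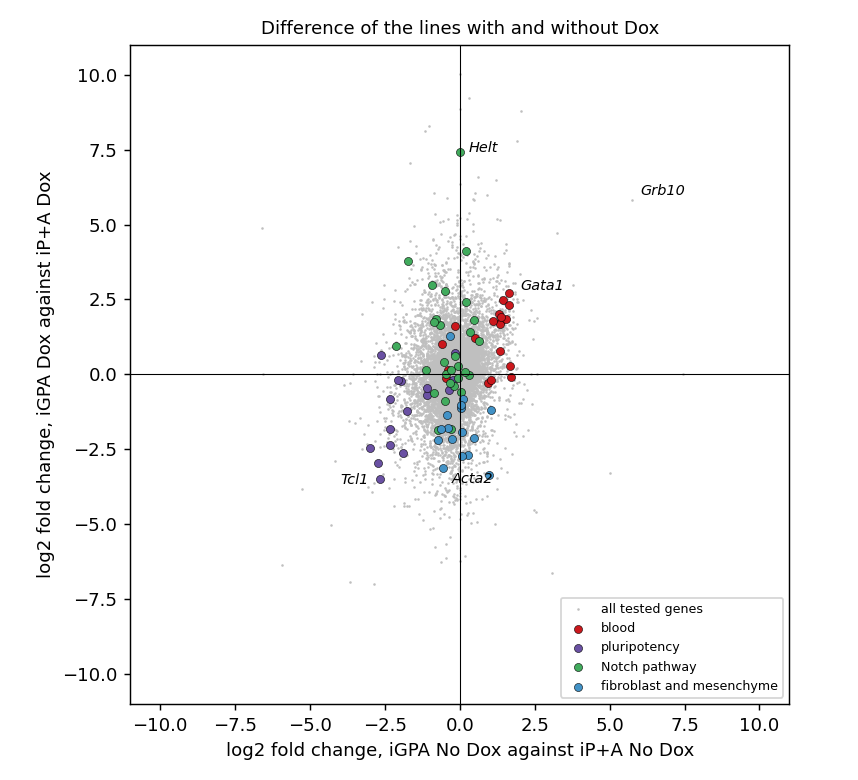
Each point is 1 of the tested genes, with the log2 difference between untreated iGPA and untreated iP+A on the horizontal axis and that between iGPA Dox and iP+A Dox on the vertical axis; coloured points are the blood, pluripotency, Notch and fibroblast lists. Grb10 lies near 5.74 and 5.82 on the axes and blood genes such as Gata1 are high on both, while Helt and Acta2 are far from 0 on the vertical axis only.

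With Dox, 893 genes were higher in iGPA than in iP+A (5.3% of those tested) and 874 were lower (5.19%). The median difference over all tested genes was 0.003, with a median SE of 0.184. Of the 893 genes that were higher, 36 were also higher in the untreated lines (4.0%, and 60.0% of the 60) and 14 were lower there, and of the 874 that were lower, 28 were also lower there (3.2%, and 22.8% of the 123) and 2 were higher. The difference between the Dox effects, which takes the untreated difference off the direct one, was called for 802 genes in the direction of iGPA (4.76%) and for 478 in that of iP+A (2.84%). Under quantile normalization the counts were 635 and 599, so that the share on the iGPA side was 51.5% in place of 62.7%.

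Dox itself raised 792 genes (4.7%) and lowered 435 (2.58%, or 233 genes without replicate 1 of iP+A Dox) in iP+A, and raised 1456 (8.65%) and lowered 894 (5.31%) in iGPA. Under quantile normalization the iGPA counts were 1221 and 1085. In both lines, sorted Dox cells were compared with unsorted EBs, and these comparisons share libraries with the direct one, so their values are given side by side only. The genes that were higher in iGPA Dox than in iP+A Dox had a median Dox effect of 2.26 in iGPA (quartiles 1.22 and 3.55) and −0.2 in iP+A (−0.85 and 0.57). For those that were lower, the median Dox effect was −1.69 in iGPA (−2.55 and −0.43) and 0.11 in iP+A (−0.79 and 1.44).

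The 6 HC markers used in the study were mostly at a higher level in iGPA Dox, but only Lhx3 reached the fold threshold. Lhx3, a LIM-homeodomain factor of HCs and motor neurons, had 337 and 497 normalized counts in iGPA Dox against 47.9 and 28.8 in iP+A Dox, and at most 1.46 in untreated libraries (chromosome 2, 26055732 to 26063769). It differed by 3.43 ± 0.77 (10.9-fold, limma adjusted p = 0.00189), with no overlap between the groups. The Dox effect on Lhx3 was larger in iGPA by 3.15 ± 1.09, which was not called (limma adjusted p = 0.0528). Myo6, the minus-end directed motor of the HC, lay at 9698 and 9360 against 5091 and 4598 (chromosome 9, 80012838 to 80159536). Its difference of 0.98 ± 0.20 passed the adjusted p (limma, 7.02e-04) but not the fold threshold. The same held for Myo7a, an unconventional myosin of the hair bundle, at 2810 and 3785 against 1823 and 1969 (0.78 ± 0.13, limma adjusted p = 9.47e-05), and for Espn, which bundles the actin of stereocilia, at 2033 and 1951 against 915 and 841 (1.18 ± 0.35, limma adjusted p = 0.0133). Espn was lower in untreated iGPA (285 and 188) than in untreated iP+A (461 and 656), and its Dox effect was larger in iGPA by 2.42 ± 0.50 (limma adjusted p = 0.00244). Otof, needed for exocytosis at the HC synapse, had 293 and 240 against 205 and 136 (0.67 ± 0.48, limma adjusted p = 0.299). Cdh23, a tip link cadherin, gave no separation, with 27200 and 22120 against 31390 and 23670 and values between 10370 and 36930 without Dox.

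Some structural genes of the hair bundle passed both thresholds, and others passed the adjusted p at a smaller difference. Of 10 tip link and mechanotransduction genes tested (11 were listed), 4 were higher in iGPA Dox, with a median of 0.53, and these 4 also had a larger Dox effect in iGPA. None was lower, or 1 without replicate 2 of iP+A Dox. Without the fold threshold, 6 of the 10 had a limma adjusted p under 0.05, as did 37.3% of all genes tested, and the 2 that this added were Ush1c (0.85) and Lhfpl5 (−1.40). Pcdh15, the cadherin that pairs with Cdh23 in the tip link, had 2863 and 2099 normalized counts in iGPA Dox and 56.3 and 81.8 in iP+A Dox. The untreated libraries ranged from 63.5 to 92.5, with 1 iP+A Dox replicate in this range and the other below it, so that of these 4 groups iGPA Dox alone stood high (35.9-fold over iP+A Dox, 5.15 ± 0.36, limma adjusted p = 8.18e-09). Tmie, a subunit of the transduction complex, had 975 and 1086 against 106 and 89.4 (chromosome 9, 110768215 to 110782617), with 1.97 to 10.1 in untreated libraries. Here iP+A Dox cells were also above untreated cells, and the level in iGPA Dox was 10.5-fold higher again (3.39 ± 0.44, limma adjusted p = 1.07e-05). The channel gene Tmc2 had 114 and 137 against 17.2 and 16.4 (2.83 ± 0.40), whereas its paralogue Tmc1 stayed at 12.9 and 11.8 in iP+A Dox and 14.6 and 14.3 in iGPA Dox (0.21 ± 0.47).

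Of 25 genes of the actin core, its motors and the bundle base, 2 were higher and 2 were lower, and the median was 0.12. These counts are near the shares of all tested genes, 5.3% higher and 5.19% lower, and give no result about the list as a whole. Without the fold threshold, 11 of the 25 had a limma adjusted p under 0.05, beside 37.3% of all genes tested. The 7 that this added were Cib2 (1.32), Espn (1.18), Eps8l2 (1.04), Myo6 (0.98), Myo7a (0.78), Myo3a (0.72) and Tprn (0.68). Clic5, at the base of stereocilia, had 628 and 612 normalized counts in iGPA Dox against 96.9 and 116 in iP+A Dox (2.53 ± 0.42). Myo15, the motor that carries proteins to stereocilia tips, was the other member called higher, at 1296 and 1454 against 354 and 288 (2.10 ± 0.28, limma adjusted p = 1.27e-05). It was also at a higher level in untreated iGPA (445 and 625) than in untreated iP+A (190 and 239), and its Dox effects differed by 0.80, which was not called. Ptprq, a phosphatase of the shaft connectors, went the other way at 11.99 and 25.6 against 85.7 and 144 (−2.59 ± 0.45). In untreated cells Ptprq ranged from 8.97 to 19.8, so that 1 of the iGPA Dox replicates was within this range and the other was slightly above it, while both iP+A Dox replicates were far above it. Espnl, the espin-like paralogue of Espn, was also lower, at 101 and 76.7 against 415 and 364 (−2.13 ± 0.50).

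Of 17 synaptic, channel and calcium-buffer genes of HCs that were tested (19 were listed), 2 were higher and 1 was lower. Slc17a8, the vesicular glutamate transporter of HCs, had 111 and 128 normalized counts in iGPA Dox against 6.26 and 4.43 in iP+A Dox, and 2.47 to 3.89 without Dox. It was thus near the untreated level in iP+A and 22.4-fold higher in iGPA (4.26 ± 0.85, limma adjusted p = 6.66e-04). Cabp2, a calcium sensor of HC channels, had 246 and 334 against 40.1 and 39.0, with at most 1.70 in untreated cells (2.83 ± 0.75). Calb2, which encodes the calcium buffer calretinin, was lower at 3.15 and 2.07 against 41.7 and 43.3 (−3.61 ± 0.75), but it was also lower in untreated iGPA (4.47 and 0) than in untreated iP+A (9.37 and 26.4).

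Among 17 regulators of HC development, 2 were higher and 4 were lower, with a median of 0.00. Beside Lhx3, Eya1, a transcriptional cofactor and phosphatase needed for the inner ear, was higher at 1440 and 1805 against 264 and 362 (2.38 ± 0.29, limma adjusted p = 4.80e-06). The splicing factors Srrm4 and Srrm3, which promote the inclusion of neural microexons in HCs and neurons, were much lower. Srrm4 had 76.9 and 86.5 normalized counts in iGPA Dox and 2439 and 1581 in iP+A Dox (−4.57 ± 0.85, limma adjusted p = 3.66e-04), and 36.4 to 39.4 in untreated iGPA but 3.43 to 8.96 in untreated iP+A. Srrm3 had 199 and 150 against 3963 and 3051 (−4.33 ± 0.34, limma adjusted p = 4.13e-08), with 142 to 235 in untreated cells, so that its iGPA Dox level lay within the untreated range. Tbx2, which directs inner against outer HC fate, was lower at 1187 and 1038 against 4740 and 4965 (−2.13 ± 0.34). Six2 was the other gene called lower, at 80.8 and 64.5 against 190 and 255 (−1.59 ± 0.32), a call lost without replicate 2 of either Dox group.

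**Figure D2:**
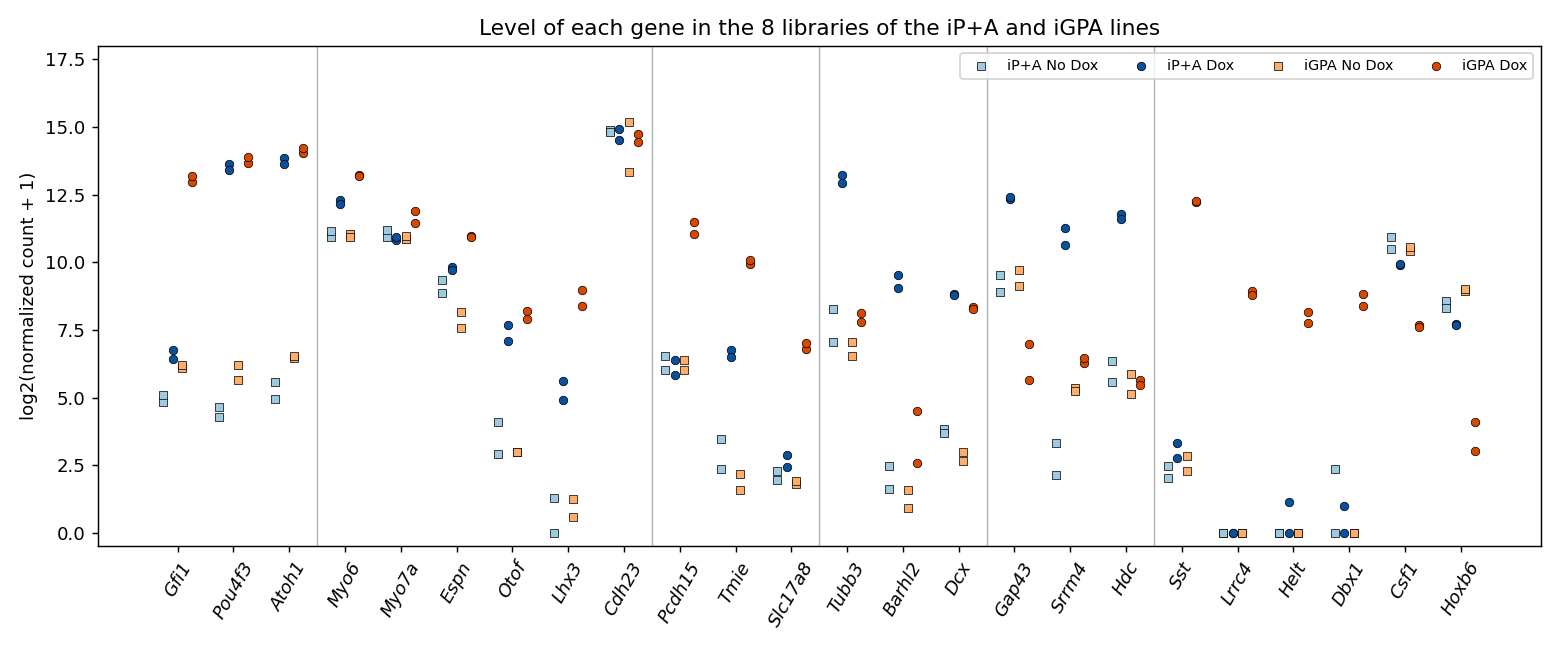
Levels of 24 genes as log2(normalized count + 1) in each of the 8 libraries, with squares for untreated EBs and circles for sorted Dox cells of each line. Gfi1, Pcdh15, Sst and Lrrc4 are high in the iGPA Dox circles only, while Tubb3, Barhl2, Gap43 and Srrm4 are high in the iP+A Dox circles and, in iGPA Dox, lie far below them.

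Some neuronal genes that were high in iP+A Dox were far lower in iGPA Dox, while others were raised by Dox in both lines. Against untreated cells, Dox raised 12 of 16 neuronal cytoskeleton genes in iP+A and 8 in iGPA, 6 of 10 neuronal RNA-binding proteins in each, 6 and 5 of 19 synaptic vesicle genes and 7 and 6 of 12 proneural factors. Of all tested genes, 4.7% were raised in iP+A and 8.65% in iGPA, and both comparisons set sorted against unsorted cells. The counts do not say which members were raised in both lines. Of the 3 neuronal markers used in the study, 2 were lower. Tubb3, the neuronal β-tubulin, had 278 and 222 normalized counts in iGPA Dox against 9649 and 7735 in iP+A Dox, with 91.4 to 312 in untreated cells (chromosome 8, 125935324 to 125945915). Its level in iGPA Dox was within the untreated range, and the difference was −5.11 ± 0.36 (limma adjusted p = 9.75e-09). Barhl2, a homeodomain factor of amacrine, spinal and other neurons, had 21.5 and 5.05 against 743 and 533, and at most 4.60 without Dox (−5.76 ± 1.08, limma adjusted p = 3.96e-04). Dcx, the microtubule protein of migrating neurons, did not separate in this way. It had 323 and 306 against 458 and 441, with 5.24 to 13.2 in untreated cells, so that it was far above the untreated level in both lines (−0.51 ± 0.44, limma adjusted p = 0.390).

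Of 16 neuronal cytoskeleton genes, 8 were lower in iGPA Dox and 1 was higher, with a median of −1.27, and 4 of them had a lower Dox effect in iGPA. Gap43, a growth cone protein, had 49.2 and 124 normalized counts in iGPA Dox against 5156 and 5390 in iP+A Dox, and 483 to 829 in untreated cells (chromosome 16, 42248555 to 42340764). The iGPA Dox level was thus below the untreated range and the iP+A Dox level above it (−6.06 ± 0.37, limma adjusted p = 2.05e-09). Stmn2, which destabilizes microtubules in axons, had 491 and 394 against 3252 and 2454 (−2.68 ± 0.60), and Crmp1, a semaphorin signal mediator, 555 and 669 against 3171 and 2041 (−2.06 ± 0.37). Map1b, a large microtubule-associated protein of growing axons, was lower by a smaller margin, at 10250 and 7572 against 32780 and 25110 (−1.70 ± 0.21), and was not called without replicate 2 of iGPA Dox. Nefm, the middle neurofilament, was the 1 member that was higher, at 393 and 446 against 98.7 and 60.5 (2.42 ± 0.77, limma adjusted p = 0.0196), a call that was lost when replicate 2 of iP+A Dox or either iGPA Dox replicate was left out.

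Of the 10 neuronal RNA-binding proteins, 3 were lower and none was higher, with a median of −0.37. Without the fold threshold, 6 of the 10 had a limma adjusted p under 0.05, beside 37.3% of all genes tested. This added Celf4 (1.31), Nova1 (1.06) and Nova2 (0.72), all on the higher side. Rbfox1, a neuronal splicing regulator, had 39.8 and 40.1 normalized counts against 754 and 464 (−3.86 ± 0.56), and Elavl2 and Celf3 each differed by −1.77, calls that were lost without replicate 2 of iGPA Dox and replicate 1 of iP+A Dox, respectively. Of the 19 synaptic vesicle and release genes, 3 were lower and 1 was higher, but none was called by limma in the difference of the Dox effects, where 7 had an unadjusted p under 0.05 and other settings gave at most 2 calls. Cplx1, which clamps vesicle fusion, had 99.3 and 70.7 against 622 and 479 (−2.69 ± 0.46), and Snap25, a SNARE protein, 30.7 and 28.3 against 229 and 82.7 (−2.19 ± 0.60), a call lost without replicate 1 of iP+A Dox. The third was Syt4 (−4.37 ± 0.81). Slc32a1, the vesicular inhibitory amino acid transporter, was higher at 434 and 957 against 127 and 168 (2.13 ± 0.28), but was also higher in untreated iGPA by 2.39. The median over the list was −0.18.

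Sensory neuron genes changed in both directions, and 1 of them, Runx1, was also counted among the blood genes above. Of 27 tested, 7 were higher and 5 were lower, with a median of 0.18, and 4 of the 7 and 1 of the 5 were called the same way in the difference of the Dox effects. Among those that were higher, Isl1, a LIM-homeodomain factor of sensory neurons, had 7397 and 7381 normalized counts in iGPA Dox against 2538 and 2257 in iP+A Dox (1.63 ± 0.45). Among neurotrophin receptors, Ntrk3, the receptor of NT-3, had 1268 and 1030 against 186 and 176 (2.66 ± 0.58), while Ntrk2, the receptor of BDNF, was lower at 277 and 208 against 1020 and 891 (−1.98 ± 0.59). The call of Ntrk2 was lost without replicate 2 of iGPA Dox or replicate 1 of iP+A Dox. Scn10a, a sodium channel of nociceptors, was at a low level in both groups, with 55.3 and 81.9 against 1.80 and 6.18 (3.93 ± 0.77). Prrxl1, Gal and Runx1 were also higher, by 2.14, 2.06 and 1.78, but the call of Prrxl1 was lost without any of the 4 Dox libraries and that of Runx1 without replicate 2 of iGPA Dox or replicate 1 of iP+A Dox. Phox2a, a factor of autonomic neurons, was lower at 48.1 and 20.2 against 549 and 435 (−3.93 ± 0.74), and it was also below the 234 to 1059 of untreated cells. Pou4f1, the paralogue of Pou4f3 in sensory neurons, had 547 and 449 against 2346 and 1752 (−2.03 ± 0.50), which in both lines was far above the 15.3 to 50.7 of untreated cells. Isl2 and P2rx3, an ATP-gated channel, differed by −2.64 and −2.16.

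Of the proneural bHLH factors and their partners, 12 of 20 in the table passed the filter on low values, 6 were lower and 1 was higher. Bhlhe22, a repressor in the Olig family, had 29.6 and 18.2 normalized counts in iGPA Dox against 688 and 424 in iP+A Dox (−4.48 ± 0.61, limma adjusted p = 1.70e-05). Atoh8 was lower by 1.71 at 524 and 552 against 1787 and 1742. The calls of Neurog2, Nhlh2 and Neurog1 were each lost when any of 3 or more of the 4 Dox libraries was left out, so that the count was 3 in place of 6 without replicate 1 of iP+A Dox or without either iGPA Dox replicate, and also with a pseudocount of 0.5. Olig3, a dorsal progenitor factor, was the 1 higher member at 70.4 and 104.8 against 6.33 and 4.795 (3.74 ± 0.76).

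Genes of the Notch pathway, through which HCs and neurons inhibit the same fate in their neighbours, were higher in iGPA Dox at several levels of the pathway. Of 29 tested, 9 were higher and 2 were lower, with a median of 0.42, and 9 had a larger Dox effect in iGPA, 8 of them among those called higher in the direct comparison. Among ligands, Jag2 had 4706 and 4516 normalized counts in iGPA Dox against 1444 and 1121 in iP+A Dox (1.86 ± 0.23), and the Notch-binding protein Dner 1483 and 1389 against 98.7 and 108 (3.79 ± 0.50, limma adjusted p = 1.20e-05). Dner in iP+A Dox lay within the 37.3 to 275 of untreated cells. Jag1 was lower at 637 and 826 against 2913 and 2317 (−1.84 ± 0.30), as was the non-canonical ligand Dlk1 at 2032 and 3024 against 11470 and 6763 (−1.83 ± 0.34), whose call was lost without replicate 1 of iP+A Dox. The Delta ligands did not pass both thresholds in the direct comparison, with Dll1 at 820 and 980 against 487 and 433 (0.96 ± 0.57) and Dll3 at 7423 and 6117 against 2333 and 1983 (1.65 ± 0.68, limma adjusted p = 0.0645).

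Of the fringe glycosyltransferases, which modify Notch receptors, Lfng and Mfng were higher and Rfng was not. Lfng had 2107 and 2443 against 334 and 241 (chromosome 5, 141083295 to 141091497; 2.99 ± 0.38, limma adjusted p = 7.85e-06) and Mfng 5143 and 5626 against 1716 and 1357 (1.82 ± 0.27), while Rfng lay at 904 and 1018 against 947 and 1006 (−0.02 ± 0.14). The receptor gene Notch1, at 2666 and 3259 against 2729 and 2650, differed by 0.13 ± 0.27. Among target genes, Hes5 had 179 and 268 against 14.5 and 9.58 (4.11 ± 0.89), Heyl 640 and 876 against 144 and 79.8 (2.79 ± 0.49) and the feedback inhibitor Nrarp 1304 and 1979 against 294 and 304 (2.42 ± 0.27). Hes7 was higher by 1.74, but Hes1 lay at 1431 and 1246 against 1402 and 1274 with no difference (0.00 ± 0.36). Helt, a Hes-related repressor of midbrain GABAergic neurons, had 289 and 215 in iGPA Dox, 0 and 1.18 in iP+A Dox and 0 in all 4 untreated libraries (chromosome 8, 47377404 to 47380025; 7.41 ± 0.88, limma adjusted p = 3.79e-06). The Id genes, whose proteins sequester bHLH partners, included no call among 4, and Id2, at 5386 and 5626 against 13000 and 11150 (−1.13 ± 0.18), was the 1 member that passed the adjusted p but not the fold threshold.

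**Figure D3:**
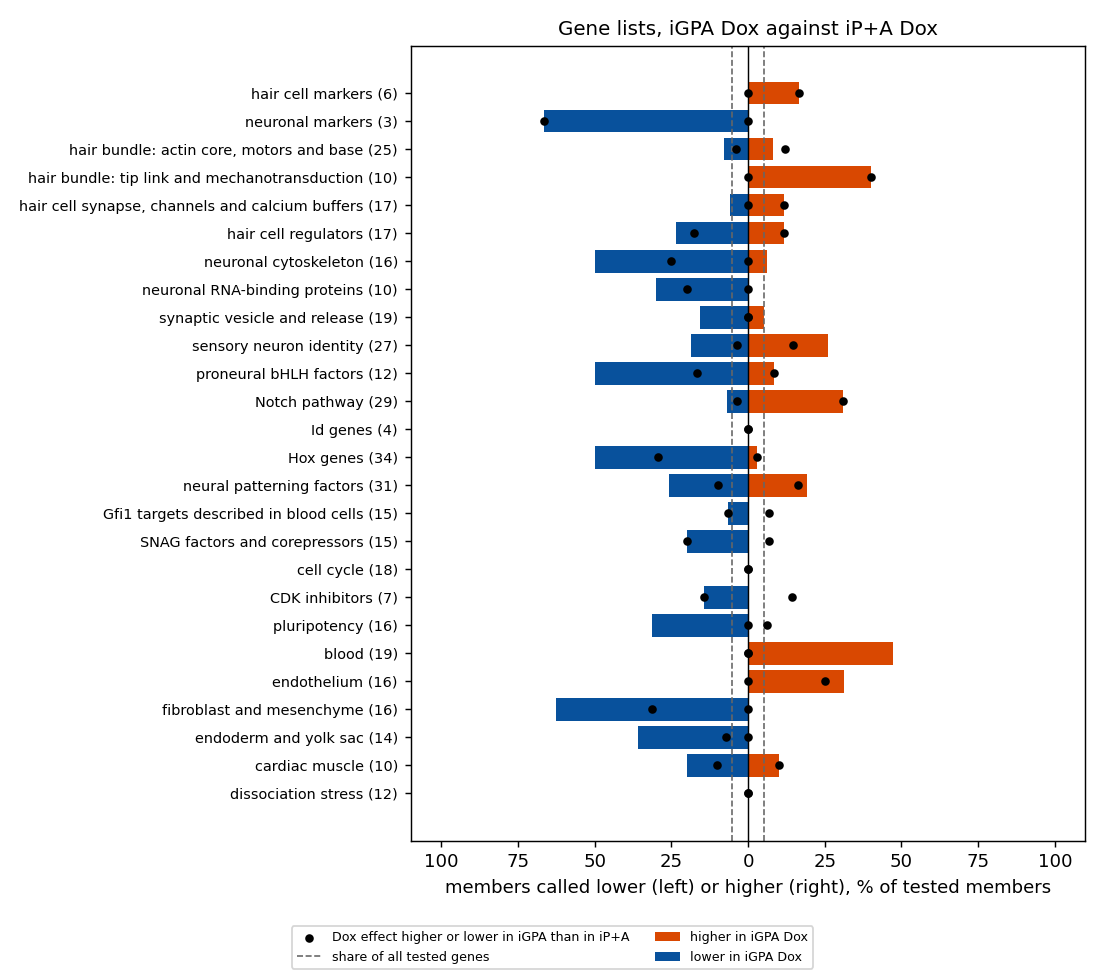
For each of 26 gene lists, bars give the percent of tested members that were called higher (to the right) or lower (to the left) in iGPA Dox than in iP+A Dox, and black dots give the same for the difference of the Dox effects; dashed lines mark the 5.3% and 5.19% of all tested genes called in each direction. Hox, fibroblast, cytoskeleton and bHLH genes extend to the left, and blood, Notch and tip link genes to the right, with no black dots away from 0 for blood genes.

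Hox genes, which set position along the body axis, were lower in iGPA Dox over most clusters. Of 34 tested (39 were listed), 17 were lower and 1 was higher, with a median of −1.88, and 10 had a lower Dox effect in iGPA. None was called by limma in the untreated lines, where 2 had an unadjusted p under 0.05. Hoxb6 had 7.14 and 16.1 normalized counts in iGPA Dox against 211 and 205 in iP+A Dox, and 316 to 513 in untreated cells (−4.15 ± 0.86, limma adjusted p = 9.47e-04). Both lines were thus below the untreated level with Dox, and iGPA further so. Hoxc8 had the same order at 11.2 and 8.07 against 106 and 121, with 185 to 446 without Dox (−3.44 ± 0.41, limma adjusted p = 3.75e-06), as did Hoxc6 at 19.5 and 11.3 against 180 and 167 (−3.46 ± 0.27). Hoxb1, the most anterior gene of its cluster, went the other way at 242 and 317 against 23.5 and 1.92 (5.04 ± 0.94, limma adjusted p = 3.90e-04), while untreated cells had 25.7 to 71.4. Without replicate 1 of iGPA Dox, 2 Hox genes were called higher.

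Of 31 factors that pattern the neural tube and brain, 6 were higher and 8 were lower, with a median of −0.62, and 5 of the 6 and 3 of the 8 were called the same way in the difference of the Dox effects. Dbx1, of interneuron progenitors, had 336 and 455 in iGPA Dox, 0 and 0.961 in iP+A Dox and at most 4.07 without Dox (8.13 ± 0.93, limma adjusted p = 2.61e-06). Pax3, a dorsal neural tube factor, had 2489 and 2179 against 95.2 and 111, with 13.5 to 57.4 in untreated cells (4.49 ± 0.82, limma adjusted p = 3.25e-04). The forebrain and eye factor Six3 showed the reverse, with 81.9 and 51.2 in iGPA Dox, 2202 and 1987 in iP+A Dox and 2.02 to 10.4 without Dox (−4.99 ± 0.99, limma adjusted p = 6.51e-04). Lhx5 was lower at 6.14 and 5.05 against 67.0 and 94.2 (−3.61 ± 0.66) and En1, of the midbrain and ventral spinal cord, at 12.3 and 6.05 against 84.2 and 109 (−3.32 ± 0.72). Gbx2, of the hindbrain, was higher at 100 and 45.4 against 4.52 and 2.88 (3.89 ± 0.94). Without replicate 2 of iGPA Dox, 5 in place of 8 factors were called lower.

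Of 15 genes known in blood cells as targets of Gfi1 (16 were listed), 1 was lower, near the share of all genes, and the median was −0.03. Without replicate 2 of iP+A Dox, or without replicate 1 of iGPA Dox, 1 was also called higher. The limma adjusted p was under 0.05 at any fold for 5 of the 15, which were Csf1, Spi1 (1.22 ± 0.24), Gfi1b (1.02 ± 0.32), Meis1 (−0.89 ± 0.24) and Id2. The member called lower was Csf1, a growth factor of the monocyte lineage, at 203 and 192 normalized counts in iGPA Dox, 949 and 969 in iP+A Dox and 1381 to 1948 in untreated cells (−2.28 ± 0.30, limma adjusted p = 1.14e-05; chromosome 3, 107543966 to 107563387). Hoxa9 had 14.3 and 13.1 against 22.6 and 26.9 (−0.80 ± 0.63). Of 15 factors with a SNAG domain and their corepressors, 3 were lower. All 3 were relatives of Snail. Scrt2, a neuronal repressor, had 4.10 and 1.01 against 147 and 88.5 (−5.17 ± 0.69), Snai2, of migrating mesenchyme, 652 and 521 against 3498 and 3044 (−2.48 ± 0.44) and Scrt1 47.1 and 49.4 against 204 and 154 (−1.85 ± 0.55), the last a call that was lost without replicate 1 of iP+A Dox or without either iGPA Dox replicate. Kdm1a itself had 11550 and 12120 against 15630 and 15790, which passed the adjusted p (limma, 1.57e-04) at a log2 difference of −0.41 ± 0.07. At any fold, 10 of the 15 had a limma adjusted p under 0.05, beside 37.3% of all genes tested. Among corepressors these included Rcor1 (0.79) and Rcor2 (0.55), which encode CoREST proteins, on the higher side. Ehmt2 (−0.38) and Hdac2 (−0.23) were on the lower side with Kdm1a.

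None of 18 cell cycle genes was called by limma between the Dox groups, 3 had an unadjusted p under 0.05, and the median was −0.08. Mki67, made in cycling cells, had 15760 and 19400 normalized counts in iGPA Dox and 16530 and 17320 in iP+A Dox (0.05 ± 0.12, limma adjusted p = 0.802). Of 7 CDK inhibitors, Cdkn2c was lower at 31.7 and 34.3 against 114 and 141 (−1.91 ± 0.27).

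Of the genes called in the direct comparison, 563 that were higher and 423 that were lower were also called the same way in the difference of the Dox effects, had no overlap between the Dox groups and were kept by the exclusions of the rule for naming genes. The 12 with the largest difference in each direction were named. The rises were of genes near 0 in iP+A Dox. Sst, which encodes the peptide hormone somatostatin, had 4774 and 4950 normalized counts in iGPA Dox, 9.03 and 5.74 in iP+A Dox and 3.08 to 6.11 in untreated cells (chromosome 16, 23889667 to 23890930), or 658-fold more in iGPA Dox (9.21 ± 0.73, limma adjusted p = 4.16e-08). Lrrc4, a postsynaptic adhesion protein, had 490 and 439 in iGPA Dox and was listed at 0 in the other 6 libraries. Msln, a membrane protein of the mesothelium, had 451 and 411 against 0.906 and 0 (8.29 ± 0.60). Wnt10a, a Wnt ligand, had 667 and 569 against 4.53 and 2.88 (7.06 ± 0.72), Rbp3, a retinoid carrier of the photoreceptor matrix, 197 and 262 against 0.905 and 1.92 (6.59 ± 0.56), and Flrt1, an adhesion protein, 235 and 279 against 0 and 8.65 (6.37 ± 1.00). Prmt8, a brain arginine methyltransferase, and Sox14, of GABAergic neurons, each differed by 6.05, and the transcript 2900052N01Rik by 7.80. Rprl1, a small RNA gene, had 84.4 and 2240 in the iGPA Dox replicates, which differed widely, and was listed at 0 in iP+A Dox.

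The genes that were lowest in iGPA Dox against iP+A Dox included some that were raised by Dox in iP+A and some that were lost in iGPA. Hdc, which makes histamine from histidine, had 49.2 and 43.4 normalized counts in iGPA Dox and 3490 and 3096 in iP+A Dox, with 34.4 to 80.4 in untreated cells (chromosome 2, 126419403 to 126445035; −6.12 ± 0.40, limma adjusted p = 5.28e-09). A2m, a protease inhibitor, had 61.5 and 131 against 3785 and 3958, with 130 to 335 without Dox (−5.41 ± 0.46, limma adjusted p = 8.80e-08). Both were within or below the untreated range in iGPA Dox and well above it in iP+A Dox. Alx4, of craniofacial mesenchyme, had 1.02 and 3.03 against 158 and 132, and Islr, a stromal surface protein, 13.7 and 11.9 against 417 and 431 (−5.67 ± 0.66 and −4.95 ± 0.43). In untreated cells Alx4 was at 259 to 556, so that it was below the untreated level in both Dox groups and further so in iGPA. Islr was at 229 to 443 in untreated cells, and only its iGPA Dox level lay outside this range. Insyn2b and Rasl10a were listed at 0 in iGPA Dox, against 153 and 106, and 79.6 and 68.1, in iP+A Dox. Ecsit was listed at 0 in iGPA Dox against 176 and 53.8, but it ranged from 0.920 to 488 in untreated cells and its call was lost without replicate 1 of iP+A Dox (limma adjusted p = 0.0871).

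Promoter sequences of the genes were searched for short motifs, in windows from 250 bases before to 50 bases after a gene's start (RefSeq, GRCm38.p6). Windows were found for 13126 of the tested genes, 16562 windows in all. The core of the Gfi1 site, AATCAC on either strand, was in 8.71% of all windows, in 6.68% of 823 windows of genes that were higher in iGPA Dox and in 10.7% of 814 windows of genes that were lower. Among the genes also called in the difference of the Dox effects the shares were closer, at 7.66% of 522 windows and 9.32% of 397. The longer form AATCACNGC, which contains the core, was in 1.03%, 0.729% and 1.47%. The E box CAGCTG, which Atoh1 and other bHLH dimers bind, was in 16.5%, 24.9% and 19.8%, and ATTAAT, part of the site of Pou4f factors, in 2.54%, 2.67% and 2.95%. These shares are a description of the letters in the windows.

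Promoters that hold the core, of genes that were lower and genes that were higher in iGPA Dox, are shown because the motif stands on both sides of the comparison. They are the 250 bases before the start of Six3 (chr17:85620584-85620833, + strand), Csf1 (chr3:107760470-107760719, − strand), Sst (chr16:23890845-23891094, − strand) and Dner (chr1:84696222-84696471, − strand), each written 5′ to 3′ along the gene, with the core or its reverse complement in capitals, 134, 119, 114 and 60 bases before the start.
Six3: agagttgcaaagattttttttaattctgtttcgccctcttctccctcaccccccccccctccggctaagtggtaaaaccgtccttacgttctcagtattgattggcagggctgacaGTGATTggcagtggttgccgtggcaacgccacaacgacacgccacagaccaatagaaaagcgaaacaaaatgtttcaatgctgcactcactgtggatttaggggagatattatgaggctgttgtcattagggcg
Csf1: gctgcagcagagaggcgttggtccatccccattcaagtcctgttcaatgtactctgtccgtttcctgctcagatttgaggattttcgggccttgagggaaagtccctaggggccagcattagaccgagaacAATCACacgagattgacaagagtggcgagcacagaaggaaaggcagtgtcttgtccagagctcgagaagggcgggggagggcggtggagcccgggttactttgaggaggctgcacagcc
Sst: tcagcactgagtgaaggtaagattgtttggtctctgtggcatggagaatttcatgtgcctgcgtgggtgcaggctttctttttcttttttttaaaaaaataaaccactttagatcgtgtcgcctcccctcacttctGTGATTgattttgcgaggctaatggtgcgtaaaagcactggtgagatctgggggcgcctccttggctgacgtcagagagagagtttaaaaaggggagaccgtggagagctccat
Dner: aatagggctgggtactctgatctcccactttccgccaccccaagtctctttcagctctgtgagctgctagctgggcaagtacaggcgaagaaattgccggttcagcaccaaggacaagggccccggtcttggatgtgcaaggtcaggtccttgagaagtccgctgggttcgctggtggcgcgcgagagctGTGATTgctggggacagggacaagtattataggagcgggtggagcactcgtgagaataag
The E box is shown, in capitals, in the 250 bases before the start of Tmie (chr9:110880074-110880323, − strand) and Lfng (chr5:140607091-140607340, + strand), genes of the transduction complex and of the Notch pathway that were higher in iGPA Dox, where it lies 206 and 146 bases before the start. The genes were chosen as examples. Windows of genes that were lower also held the E box, at 19.8% against 16.5% of all windows.
Tmie: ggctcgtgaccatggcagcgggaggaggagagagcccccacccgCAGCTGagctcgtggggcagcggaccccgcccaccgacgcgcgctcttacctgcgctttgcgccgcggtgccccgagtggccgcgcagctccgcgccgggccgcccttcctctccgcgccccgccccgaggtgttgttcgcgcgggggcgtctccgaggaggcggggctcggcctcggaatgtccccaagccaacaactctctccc
Lfng: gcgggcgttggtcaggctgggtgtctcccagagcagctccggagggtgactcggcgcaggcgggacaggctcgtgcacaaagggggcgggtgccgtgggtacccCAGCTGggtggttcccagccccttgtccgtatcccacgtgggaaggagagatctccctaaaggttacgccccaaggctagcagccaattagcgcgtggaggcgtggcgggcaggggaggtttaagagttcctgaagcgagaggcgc

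The direct comparison could be set beside lines in which Gfi1 was added to Atoh1 alone (iG+A against iAtoh1) or to Pou4f3 alone (iG+P against iPou4f3), and beside Gfi1 alone with and without Dox (iGfi1), all of which use other libraries, 2 a group. In iG+A Dox, 1095 genes were higher than in iAtoh1 Dox (6.5%) and 660 were lower (3.92%). In iG+P Dox, 636 were higher than in iPou4f3 Dox (3.78%) and 897 lower (5.33%), and in iGfi1 Dox, 362 were higher than in untreated iGfi1 (2.15%) and 449 lower (2.67%), or 223 and 291 without replicate 1 of iGfi1 Dox. The last of these compares sorted with unsorted cells.

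Of the 893 genes that were higher in iGPA Dox than in iP+A Dox, 543 were also called higher in iG+A against iAtoh1 (60.8%, and 49.6% of the 1095) and 1 was called lower. With Pou4f3 the number was 315 (35.3%, and 49.5% of the 636), with 21 called lower, and with Gfi1 alone it was 189 (21.2%, and 52.2% of the 362), with 1 called lower. The median differences of the 893 genes in these contrasts were 1.84, 1.04 and 0.88. In both Gfi1 pairs 206 were called higher (23.1%), and in neither 241 (27.0%). Of the 874 genes that were lower, 314 were also lower in iG+A against iAtoh1 (35.9%, and 47.6% of the 660), 447 in iG+P against iPou4f3 (51.1%, and 49.8% of the 897) and 263 in iGfi1 (30.1%, and 58.6% of the 449), with medians of −1.13, −1.61 and −1.21. In the same contrasts 18, 6 and 3 of the 874 were called higher. In both pairs 191 were called lower (21.9%), and in neither 304 (34.8%).

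Sst was higher in iG+A Dox (1826 and 2079) than in iAtoh1 Dox (6.37 and 1.90) by 8.72, and in iG+P Dox it had 12.9 and 38.7 against 3.57 and 1.95. Pcdh15 had 1304 and 831 in iG+A Dox against 76.7 and 152 in iAtoh1 Dox (3.25), but 432 and 592 in iG+P Dox against 430 and 409 in iPou4f3 Dox (0.27). Slc17a8 showed its highest level of these groups in iG+P Dox, at 748 and 927 against 0 and 6.91 in iPou4f3 Dox, beside 25.5 and 77.4 in iG+A Dox and 6.45 and 1.45 in iAtoh1 Dox. Tmie was higher in both pairs, by 3.78 and 3.76. Lrrc4 was listed at 0 in iAtoh1, iPou4f3 and iGfi1 Dox and had 77.7 and 123 in iG+A Dox and 396 and 426 in iG+P Dox. Helt, in contrast, was already at 280 and 135 in iAtoh1 Dox and had 205 and 1201 in iG+A Dox.

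Tubb3 was lower in iG+A Dox (37.2 and 91.5) than in iAtoh1 Dox (1142 and 870) by −4.07, whereas it had 163 and 132 in iG+P Dox and 184 and 245 in iPou4f3 Dox (−0.53). Gap43 was lower in all of them, with −3.27 in iG+A, −5.71 in iG+P and −2.59 in iGfi1. The Hox genes also had mostly lower calls, with 13 lower and none higher in iG+A, 20 lower and 1 higher in iG+P and 6 lower and none higher in iGfi1. Hoxb6 differed by −4.67, −4.84 and −2.57 in the same order. Csf1 was lower by −2.56 in iG+P and −2.21 in iGfi1, and in iG+A it had 256 and 237 against 519 and 566 in iAtoh1 (−1.13), which did not reach the fold threshold. Of 19 blood genes, 12 were higher and none lower in iG+A (median 1.91), but none was higher and 4 were lower in iG+P (−0.06). Of 16 endothelial genes, 7 were higher and 1 was lower in iG+A (median 1.04), but none was higher and 8 were lower in iG+P (−1.56). The untreated libraries of these pairs were not compared.

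**Figure D4:**
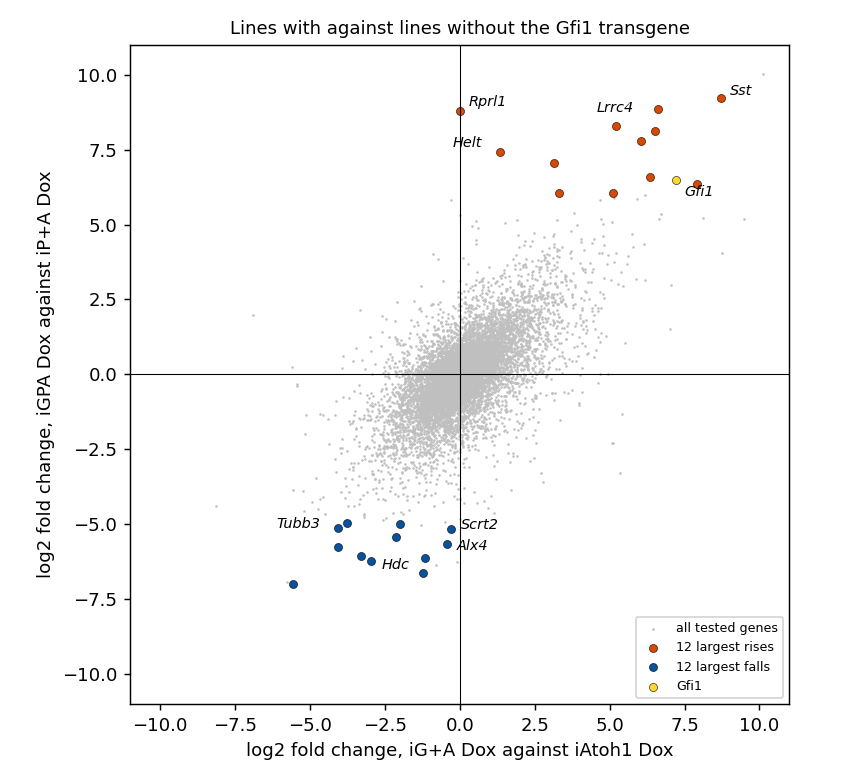
Each grey point is 1 tested gene, with the log2 difference of iG+A Dox from iAtoh1 Dox on the horizontal axis and that of iGPA Dox from iP+A Dox on the vertical axis, and the 12 largest rises, the 12 largest falls and Gfi1 are coloured, with some of them named. Gfi1 lies at 7.21 and 6.50 and Sst at 8.72 and 9.21, while Helt is at 1.35 and 7.41.

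**Figure D5:**
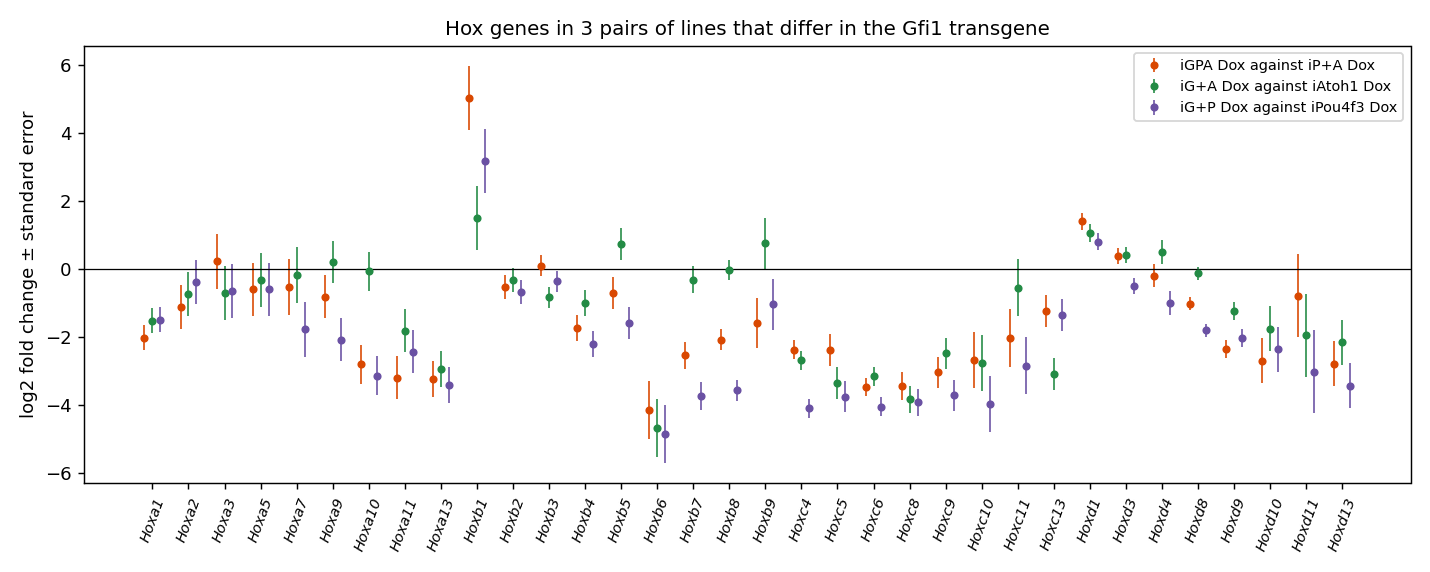
Log2 differences with SE bars of 34 Hox genes, in cluster order, for Gfi1 added to Pou4f3 and Atoh1, to Atoh1 and to Pou4f3. Most points lie below 0 in the 3 contrasts, and Hoxb1 and Hoxd1 lie above 0 in each.

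The difference between the Gfi1 effect with Pou4f3 and Atoh1 and that with Atoh1 alone was tested in 1 contrast over these 8 Dox libraries. It was called for 156 genes in the direction of a higher value with Pou4f3 (0.927%) and for 431 in the other (2.56%). The counts were 85 and 240 without replicate 1 of iP+A Dox and 99 and 273 without replicate 1 of iGPA Dox, and the first was 90 without replicate 1 of iAtoh1 Dox. Tmem132e, a transmembrane protein of HCs and neurons, had 551 and 750 normalized counts in iGPA Dox against 3340 and 2905 in iP+A Dox, but 1377 and 1207 in iG+A Dox against 42.8 and 32.9 in iAtoh1 Dox. Gfi1 thus went with a lower level in the presence of Pou4f3 and a higher one in its absence (−7.34 ± 0.63, limma adjusted p = 2.46e-06). Aldh1a7 had 12.3 and 17.2 against 217 and 159, and 6.39 and 17.1 against 1.83 and 0 in the pair without Pou4f3 (−6.37 ± 0.93, limma adjusted p = 4.88e-04). For other genes with the largest values the difference lay in the Atoh1 pair, such as B3glct, a glucosyltransferase, with 1212 and 1216 against 1673 and 1512 in the iGPA and iP+A lines, and 13.9 and 20.2 in iG+A against 742 and 769 in iAtoh1.

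Markers of other cell types also differed between the Dox groups. Of 16 fibroblast and mesenchyme genes tested, 10 were lower in iGPA Dox and none higher, with a median of −1.88, and 5 had a lower Dox effect in iGPA. The summed level of this list was 19840 and 24480 in iGPA Dox, 102600 and 83610 in iP+A Dox, 131600 and 185000 in untreated iGPA and 230800 and 146000 in untreated iP+A. Acta2, of smooth muscle and myofibroblasts, had 1858 and 2401 normalized counts against 21600 and 15740 (−3.13 ± 0.42, limma adjusted p = 1.65e-05), and Col1a2, a fibrillar collagen, 470 and 587 against 3678 and 3102 (−2.68 ± 0.42). Without replicate 1 of iP+A Dox, replicate 2 of untreated iP+A or replicate 2 of untreated iGPA, 3 in place of 5 had a lower Dox effect. Snai2, Alx4, Islr and 17 Hox genes were lower in the same comparison, and the part of mesenchymal cells in those differences was not tested. The lists did not move together in every pair. In iG+A against iAtoh1, none of the 16 fibroblast genes was lower and 1 was higher, while 13 of 34 Hox genes were lower. In iG+P against iPou4f3, 10 fibroblast genes and 20 Hox genes were lower.

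Of 16 endothelial genes, 5 were higher and none lower, with a median of 1.13, and summed levels of 28370 and 47120 in iGPA Dox, 19580 and 18920 in iP+A Dox and 21020 to 25430 in untreated cells. Etv2, a factor of blood and endothelial progenitors, had 1542 and 2457 against 327 and 315 (2.60 ± 0.39), and Sox18 1155 and 2371 against 187 and 315 (2.76 ± 0.48), while Pecam1 and Kdr, markers of mature endothelium and its progenitors, were not called, at 487 and 992 against 783 and 1129 and at 10070 and 13760 against 9937 and 7392. Without replicate 1 of iP+A Dox or replicate 2 of iGPA Dox, 3 in place of 5 were called. Of 14 endoderm genes tested, 5 were lower, and 1 without replicate 1 of iP+A Dox or of iGPA Dox. Of 10 cardiac genes, Actc1 was higher (2.57 ± 0.66) and Hand2 (−2.74 ± 0.30) and Nkx2-5 were lower, the call of Actc1 being lost without replicate 2 of iP+A Dox and that of Nkx2-5 without any of the 4 Dox libraries. None of 12 genes of the response to cell dissociation was called by limma, and the unadjusted p was under 0.05 for 2 of them, while 2 were called higher in iGPA Dox when its replicate 2 was left out or with only the 8 libraries in the fit. Their median difference was −0.62, and their summed levels were 78140 and 120700 in iGPA Dox and 158800 and 144200 in iP+A Dox.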

How the data were processed

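RNA-seq was analysed in 28 libraries of 7 lines, with and without Dox, of which 8 were iGPA and iP+A libraries. Per the labels and the study's methods, the authors trimmed reads with cutadapt, quantified them with kallisto on UCSC known genes (mm9), summarized them per gene and normalized them with DESeq2, and the deposited values are log2(normalized count + 1) for 19421 genes. From 75.1% to 78.1% of low values were within 0.05 of a whole multiple of the value of 1 read, so read counts were not recovered and no count model was used. Estimated depth was 36500000 to 45300000 reads in the 8 libraries. Precision rests on 2 clones a group.

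Differences were fitted with limma 3.58.1 (R 4.3.3, variance trend) on the deposited log2 values, with 14 groups over all 28 libraries (14 residual degrees of freedom) and the 16837 genes that reached 10 normalized counts in 2 or more libraries. Genes were called at a Benjamini-Hochberg adjusted p of 0.05 and a log2 difference of at least 1.5. The thresholds are those of the study's methods. The 26 gene lists, the comparisons and the rules were chosen with earlier results of these data known. The rule for named genes took the 3 factors, the HC and neuronal markers of the study, the 12 largest differences in each direction (genes also called in the difference of Dox effects and without overlap, leaving out genes with no matched name, protocadherin clusters and genes at 0 in one untreated library but above 50 in another), up to 6 called members of each list with those whose role is described, and the 5 largest differences of the Gfi1 effect in each direction. Gene names were matched for 19314 of the 19421 identifiers, and NCBIM37 positions for 18721. Some list members are counted but not reported here by name.

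Alternatives were other pseudocounts, filters and scalings, a fit of the 8 libraries alone, no variance trend, a lower fold threshold, a replicate block and leaving out each library.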

Additional observations from a re-analysis of the deposited data

Results flagged for a closer look

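Several results were listed here because 2 effects under the same contrast differed by a limma test of the difference itself. For the difference of the Dox effects, iGPA minus iP+A, 802 genes were higher and 478 lower, and for the difference of the Gfi1 effects, with Pou4f3 and Atoh1 minus with Atoh1, 156 were higher and 431 lower. The genes with the largest changes and the largest differences of the Gfi1 effects were named only if they passed these tests. Their listing here follows from that rule and is no further support. No explanation was tested for any of these results. Values of genes listed at 0 in a whole group depend on the pseudocount of 1 and are no fold.

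The Dox effect of iGPA was above that of iP+A by 5.30 for Gfi1, 8.90 for Sst, 8.86 for Lrrc4, 9.30 for Msln, 9.30 for Dbx1, 5.90 for 2900052N01Rik, 7.41 for Helt, 8.70 for Wnt10a, 5.99 for Rbp3, 6.37 for Flrt1, 5.54 for Prmt8, 6.92 for Sox14, 6.74 for Rprl1 and 2.42 for Espn, all on the log2(normalized count + 1) scale. It was below that of iP+A for Insyn2b (−4.15), Ecsit (−9.70), Rasl10a (−6.22), Hdc (−5.66), Gap43 (−6.25), Barhl2 (−4.95), Alx4 (−5.22), A2m (−5.10), Scrt2 (−4.19), Tubb3 (−4.24), Six3 (−6.17) and Islr (−5.33). Ecsit was at 66.4 and 488 in untreated iGPA and at 239 and 0.920 in untreated iP+A, so its replicates differed as much as the groups.

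Between the Gfi1 effects, the difference on the same scale was 8.77 for Rprl1, 6.11 for Grb10, 6.06 for Helt, 5.83 for Tbata and 5.02 for B3glct, and −8.63 for Lrrtm4, −7.41 for Evi2b, −7.34 for Tmem132e, −6.72 for Pax8 and −6.37 for Aldh1a7. Grb10 was at a low level in the iP+A line with Dox (526 and 390) and without it (519 and 654). Lrrtm4 had 6.05 and 70.1 in iGPA Dox, 255 and 182 in iP+A Dox, 1350 and 315 in iG+A Dox and 43.1 and 4.72 in iAtoh1 Dox. Evi2b, Tbata and Pax8 were under 100 normalized counts in the 8 Dox libraries of these lines.

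Counts by list are to be read beside all tested genes, of which 4.76% had a higher Dox effect in iGPA and 2.84% a lower one. Counts of 1 give no result about a list. The Dox effect was higher for 4 of 10 tip link and mechanotransduction genes, 3 of 25 of the actin core of the bundle, 2 of 17 of the HC synapse and 2 of 17 HC regulators. It was higher for 4 of 27 sensory neuron genes, 1 of 12 proneural factors, 9 of 29 Notch genes, 1 of 34 Hox genes and 5 of 31 patterning factors. The others were 1 of 15 Gfi1 targets of blood cells, 1 of 15 SNAG factors or corepressors, 1 of 7 CDK inhibitors, 1 of 16 pluripotency genes, 4 of 16 endothelial genes and 1 of 10 cardiac genes. The Dox effect was lower in iGPA for 1 of 25 of the actin core, 3 of 17 HC regulators, 4 of 16 neuronal cytoskeleton genes and 2 of 10 neuronal RNA-binding proteins. It was lower for 1 of 27 sensory neuron genes, 2 of 12 proneural factors, 1 of 29 Notch genes, 10 of 34 Hox genes and 3 of 31 patterning factors. The others were 1 of 15 Gfi1 targets, 3 of 15 SNAG factors or corepressors, 1 of 7 CDK inhibitors, 5 of 16 fibroblast genes, 1 of 14 endoderm genes and 1 of 10 cardiac genes. Most counts of 1 to 3 here changed by 1 or 2 members when a library was left out. The 4 endothelial genes with a higher Dox effect were 2 without replicate 2 of iGPA Dox, and the 5 patterning factors were 3 without replicate 1 of iP+A Dox or without either replicate of untreated iGPA. The 5 fibroblast genes with a lower Dox effect were 3 without replicate 1 of iP+A Dox, replicate 2 of untreated iP+A or replicate 2 of untreated iGPA.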

How the results depend on the processing

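Of 157 named genes that were called between the Dox groups, 0 changed direction under any alternative run, 114 kept the call in all of them, 43 lost it when a library was left out and 14 under another alternative. Under quantile normalization the untreated lines differed at 59 genes that were lower in iGPA, and with only the 8 libraries in the fit they differed at 24 higher and 29 lower. With a log2 difference of at least 1, by its construction, more genes were called, with 1346 higher and 1410 lower in iGPA Dox against iP+A Dox, 165 and 223 in the untreated lines, 727 with a lower Dox effect in iGPA, 790 lowered by Dox in iP+A and 1368 in iGPA, 1090 lower in iG+A, 967 higher and 1394 lower in iG+P, 656 and 991 in iGfi1, 258 with a higher Gfi1 effect with Pou4f3, and 869 higher and 605 lower called the same way with Pou4f3 and Atoh1 and with Atoh1. When each library was left out in turn, the direct comparison gave 747 to 883 higher and 708 to 825 lower genes, the untreated one 7 to 108 and 5 to 274, the difference of Dox effects 602 to 862 and 337 to 516, Dox in iP+A 233 to 528 lowered, iGfi1 223 to 334 higher and 291 to 546 lower, and the difference of Gfi1 effects 85 to 201 and 240 to 470. The sources state that replicates are different clones of a line but not that equal replicate numbers with and without Dox are the same clone, so the numbers were not taken to pair the libraries. Differences between replicates 1 and 2 correlated across genes at 0.15 between iGPA with and without Dox and at 0.25 for iP+A, and between the lines at 0.08 with Dox and −0.19 without. With the replicate block, the direct comparison gave 889 higher and 874 lower genes, and the difference of Dox effects 912 and 540, and no count of calls over all genes moved by over 1.5 times. By list, sensory neuron genes with a lower Dox effect were 5 in place of 1 with the block, patterning factors 5 in place of 3, and pluripotency genes with a higher Dox effect 3 in place of 1. With a pseudocount of 0.5, the proneural factors lower in iGPA Dox were 3 in place of 6. Leaving out a library leaves 1 clone in its group, which is then assumed to vary like the others, and 2 clones a group and an unknown true read depth limit small differences and genes at low levels.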
